A study of Canis lupus familiaris with 18 samples.

Results

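Gonadal fat was compared with subcutaneous fat of the same animals in 5 obese dogs, intact female beagles aged 4 years that had been fed ad libitum for 24 weeks. The arrays were taken by the ad libitum label in their titles and paired by the number of the dog (dogs 2, 5, 6, 7 and 8), which gave 10 of the 18 arrays of the series, 5 per depot. The other 8 arrays held both depots of 4 lean control dogs (dogs 1, 3, 4 and 9) of the same breed, sex and age, fed an amount that held their starting body weight. All 9 dogs ate the same commercial diet, were assigned to their feeding at random and were sampled after an overnight fast. Expression was measured on Affymetrix canine microarrays, and each value is a log2 expression value for a probe set, a group of short probes for 1 transcript. Per the labels the subcutaneous arrays had already been submitted to the repository once, which is not stated of the gonadal arrays, so a batch of arrays and the depot cannot be told apart.

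White fat lies in depots that differ in developmental origin. Visceral depots, among them the fat around the ovary and uterus, are covered by mesothelium, a sheet of epithelium-like cells that lines the body cavity and carries keratins, uroplakins and the Wilms' tumour factor WT1. Subcutaneous fat lies under the skin among collagenous septa and has no mesothelial cover. The fat cells of both depots store triglyceride and secrete hormones such as leptin and adiponectin, and they share the tissue with fibroblast-like progenitors, vessels and macrophages.

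All 10 arrays carried the fat cell transcripts ADIPOQ, the hormone adiponectin (log2 14.08 to 15.49 in gonadal and 13.83 to 15.20 in subcutaneous fat), and FABP4, a fatty acid carrier of fat cells (14.87 to 15.57 and 15.30 to 15.50). Some arrays carried transcripts of other tissues. Of 24 skeletal muscle genes on the array, 22 lay at or above log2 4, the floor for a measured level, in gonadal fat of dog 2, and 14 in subcutaneous fat of dog 7, against 5 to 8 in the other 8 arrays. Of 26 genes of motile cilia and oviduct, 22 lay at or above the floor in gonadal fat of dog 6, against 1 or 2 in the other 9. Of 24 epithelial junction genes, 17 did so in that same array, against 4 to 6 in the other 9. Ovarian steroid and germ cell genes were at or above the floor for at most 1 of 17 in any of the 10. In subcutaneous fat of dog 5 the mean level of 24 macrophage genes was log2 10.09, against 7.97 to 8.80 in the other subcutaneous arrays, and that of 26 fat cell genes was 10.01, against 11.55 to 11.88. The actin 3′ minus 5′ signal, which is larger when RNA is shorter, was 2.44 to 4.84 in gonadal and 2.61 to 4.40 in subcutaneous arrays of these 5 dogs. Fat is measured here in bulk, so fewer cells of a type and less RNA per cell cannot be told apart.

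**Figure D1:**
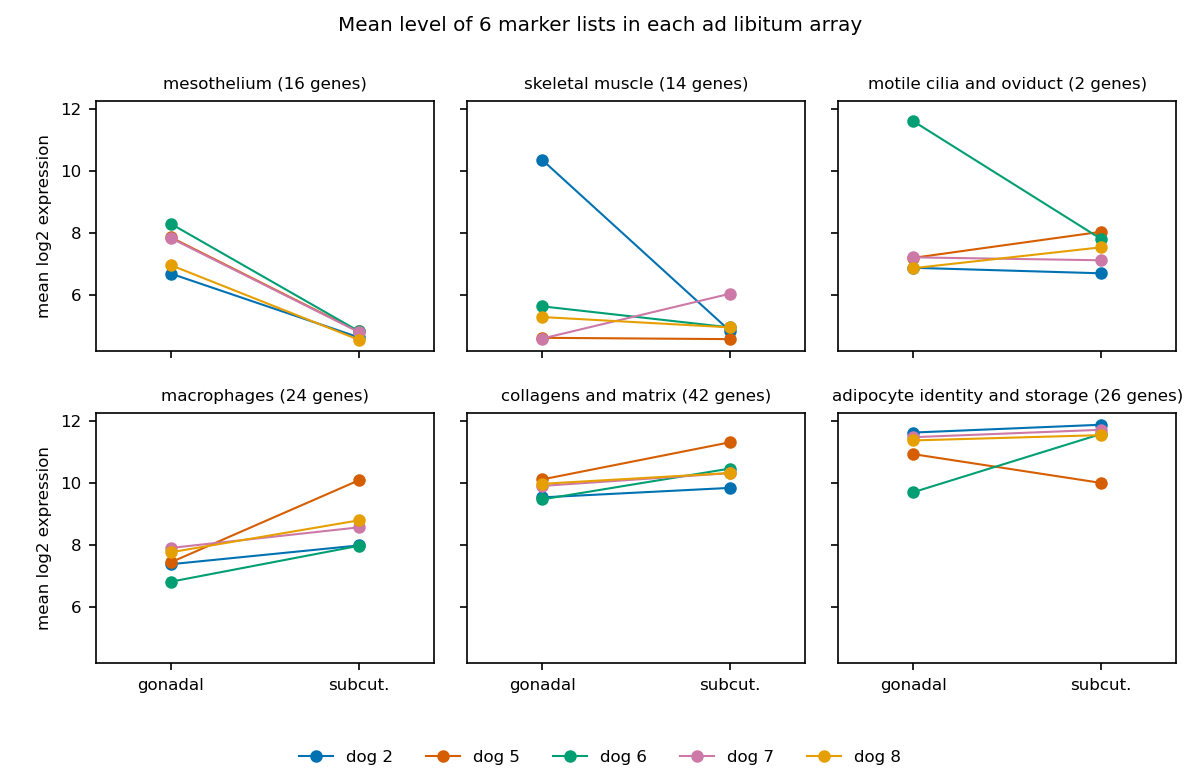
Mean log2 expression of 6 marker lists (vertical axis) in gonadal and subcutaneous fat, 1 line per ad libitum dog. Mesothelial genes lie higher in gonadal fat of all 5 dogs, skeletal muscle genes reach 10.36 in gonadal fat of dog 2, genes of motile cilia and oviduct reach 11.61 in gonadal fat of dog 6, and macrophage genes reach 10.09 in subcutaneous fat of dog 5. Of the 16 mesothelial genes 5 lay below the floor of log2 4 in every subcutaneous array.

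Of the measured mesothelial genes 13 of 16 had higher levels in gonadal fat than under the skin of the same dogs, as had single genes such as the epithelial EPCAM, the complement component C3 and the Wnt inhibitor WIF1. For 9 of the 13 mesothelial genes the subcutaneous mean lay below the floor. Their count describes the measured members and is not support for a direction. Lower in gonadal fat were 9 of 42 genes of the extracellular matrix, 5 of 22 of its proteases and their inhibitors and 6 of 24 macrophage genes. Of 8656 genes, each read from the probe set of highest mean, 762 passed the test (8.8%), with 287 higher in gonadal fat (3.32%) and 475 lower (5.49%). The shares higher and lower are the background for the count of each gene list below. Over single probe sets 1832 of 21484 passed (8.53%), 762 higher and 1070 lower. The test was limma with the dog as a block and a Benjamini-Hochberg adjusted p under 0.05 over all 21484 probe sets. The median difference was 1.16 log2 units among the higher and -0.89 among the lower genes, against -0.016 over all genes. A difference of at least 2 log2 units was reached by 59 higher and 43 lower genes. In 277 of the 287 higher and 460 of the 475 lower genes every dog moved in the same direction. These genes were called within the same dogs, and the share over all genes was not counted. The levels of the depots did not overlap in 171 of the higher and 261 of the lower genes, against 9.48% of all genes. With dog 2, 5, 6, 7 or 8 left out, 741, 1021, 1642, 508 and 560 probe sets passed. All 1832 kept their direction, but they were called in these same dogs, so this is not separate support. Without dogs 2 and 6, whose gonadal arrays carried muscle or ciliated-cell transcripts, 421 passed, 357 of them among the 1832.

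**Figure D2:**
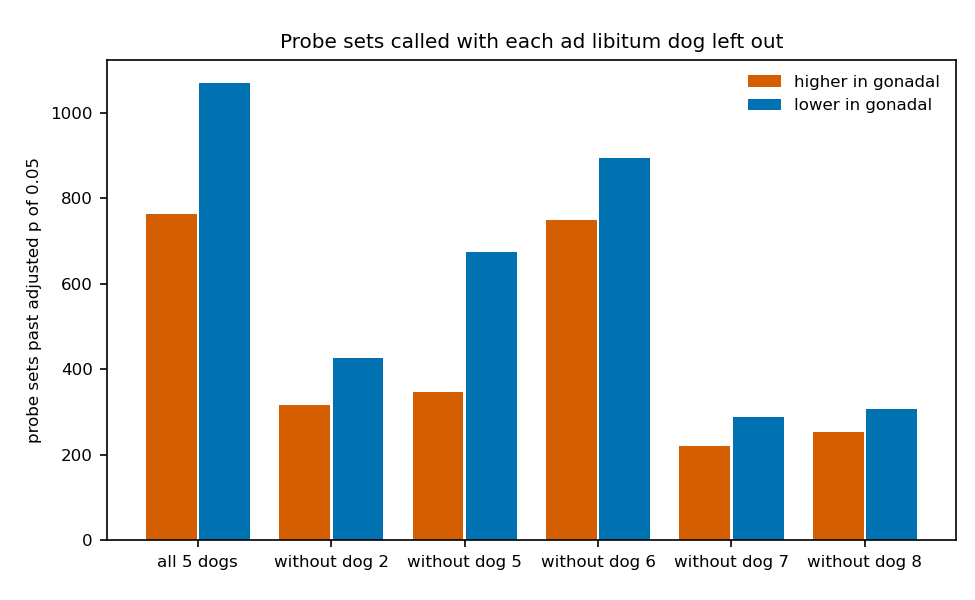
Number of probe sets past an adjusted p of 0.05 (vertical axis) that were higher or lower in gonadal than in subcutaneous fat, in all 5 dogs and with each dog left out. With all dogs 762 were higher and 1070 lower, and the total without 1 dog lies between 508 and 1642.

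Most measured mesothelial genes were higher in gonadal fat. Of 22 mesothelial genes on the array 16 were measured, and 13 of them rose and 1 fell. The median fitted difference was 3.51 log2 units, and 2.68 with depot means below the floor set to the floor. For 9 of the 13 the subcutaneous mean lay below the floor, and 5 of the 16 lay below it in every subcutaneous array. Such genes were measured through the gonadal arrays, where they are high, so this count and median describe the measured members and are not support for a direction. The count that rose was 11, 10, 12, 8 and 10 with dog 2, 5, 6, 7 or 8 left out, and 8 without dogs 2 and 6. Of the 22 genes 14 to 17 lay at or above the floor in gonadal arrays and 5 to 10 in subcutaneous arrays. In the following, 5 values in a row are log2 levels of dogs 2, 5, 6, 7 and 8 in that order. UPK1B, a uroplakin of the mesothelial and bladder surface, lay at 6.76, 8.28, 7.49, 7.67 and 6.90 in gonadal fat and at 2.65, 2.65, 2.64, 3.11 and 2.64 in subcutaneous fat. Every gonadal array was above and every subcutaneous array below the floor. UPK1B was at least 10.7-fold higher (adjusted p = 0.000115), a bound, because the subcutaneous mean was set to the floor.

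PRR15, a proline-rich protein of epithelia, lay at 7.95, 9.23, 8.71, 9.30 and 7.58 in gonadal fat and at 2.74, 2.73, 4.12, 2.51 and 2.50 in subcutaneous fat. The groups did not overlap, and dog 6 was the only subcutaneous array above the floor. PRR15 was at least 23.5-fold higher (adjusted p = 0.000443). KRT18, a keratin of simple epithelia, lay at 9.02, 10.48, 13.19, 10.40 and 9.20 in gonadal fat and at 3.68, 4.19, 3.47, 3.25 and 3.68 in subcutaneous fat. The gonadal array of dog 6, which carried the cilia genes, was the highest, and no gonadal value reached down to a subcutaneous one. KRT18 was at least 87.9-fold higher (adjusted p = 0.00267), and its adjusted p was 0.00695 without dog 6. Its partner KRT8 was higher by 4.70 ± 0.71 log2 units (± standard error from limma, adjusted p = 0.00673).

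Other mesothelial genes followed. UPK3B, a uroplakin used as a mesothelial marker, was at least 14-fold higher (adjusted p = 0.00237), and PKHD1L1, a large membrane protein, at least 10.2-fold (adjusted p = 0.00128). GPM6A, a membrane glycoprotein of neurons and mesothelium, was higher by 4.84 ± 0.67 log2 units (adjusted p = 0.00447). WT1, a transcription factor of mesothelium and gonad, was at least 9.97-fold higher (adjusted p = 0.0218). It missed the threshold without dog 5 (adjusted p = 0.0634) or dog 7 (adjusted p = 0.0683). RSPO1, a secreted amplifier of Wnt signalling, was at least 1.51-fold higher (adjusted p = 0.0135), and it narrowly missed the threshold without dog 7 (adjusted p = 0.05001). The others that rose were EZR, PTGIS, ALDH1A2 and BNC2. CALB2, the calcium-binding protein calretinin that marks mesothelium in humans, was the member that fell, and it is named because it stood alone, after its values were seen. Its levels were 3.26, 3.23, 2.40, 5.35 and 3.25 in gonadal fat and 6.07, 3.53, 7.57, 6.48 and 5.48 in subcutaneous fat, with overlapping groups. CALB2 was at least 3.54-fold lower (adjusted p = 0.0381), and it missed the threshold without dog 2, 7 or 8 (adjusted p of 0.107, 0.0696 and 0.106) and in the fit with no block for the dog (adjusted p = 0.0704).

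Of 24 epithelial junction genes 6 were measured, and EPCAM alone passed, with a list median of 0.81 log2 units. EPCAM, an adhesion molecule of epithelial cells, lay at 10.03, 11.40, 14.01, 11.40 and 10.56 in gonadal fat and at 3.82, 2.99, 3.00, 3.80 and 3.34 in subcutaneous fat. All gonadal values were far above all subcutaneous values, which lay below the floor. EPCAM was at least 178-fold higher (adjusted p = 0.00614). Without dog 6, the array with most junction and cilia genes, its adjusted p was 0.0177, and without dogs 2 and 6 it missed the threshold (adjusted p = 0.0524). CGN, the tight junction protein cingulin, was at least 10.4-fold higher (adjusted p = 0.00642). SCG5, a chaperone of prohormone processing in neuroendocrine cells, was at least 26.1-fold higher (adjusted p = 0.00581), and ECRG4, a secreted peptide precursor, at least 36-fold (adjusted p = 0.00221). Apart from gonadal dog 6, the number of the 24 junction genes at or above the floor was 5 or 6 in gonadal arrays and 4 or 5 in subcutaneous arrays. PERP, a desmosome gene and 1 of 2 measured genes of skin and mammary epithelium, was at least 7.16-fold higher (adjusted p = 0.0177), and missed the threshold without dog 5 (adjusted p = 0.054).

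**Figure D3:**
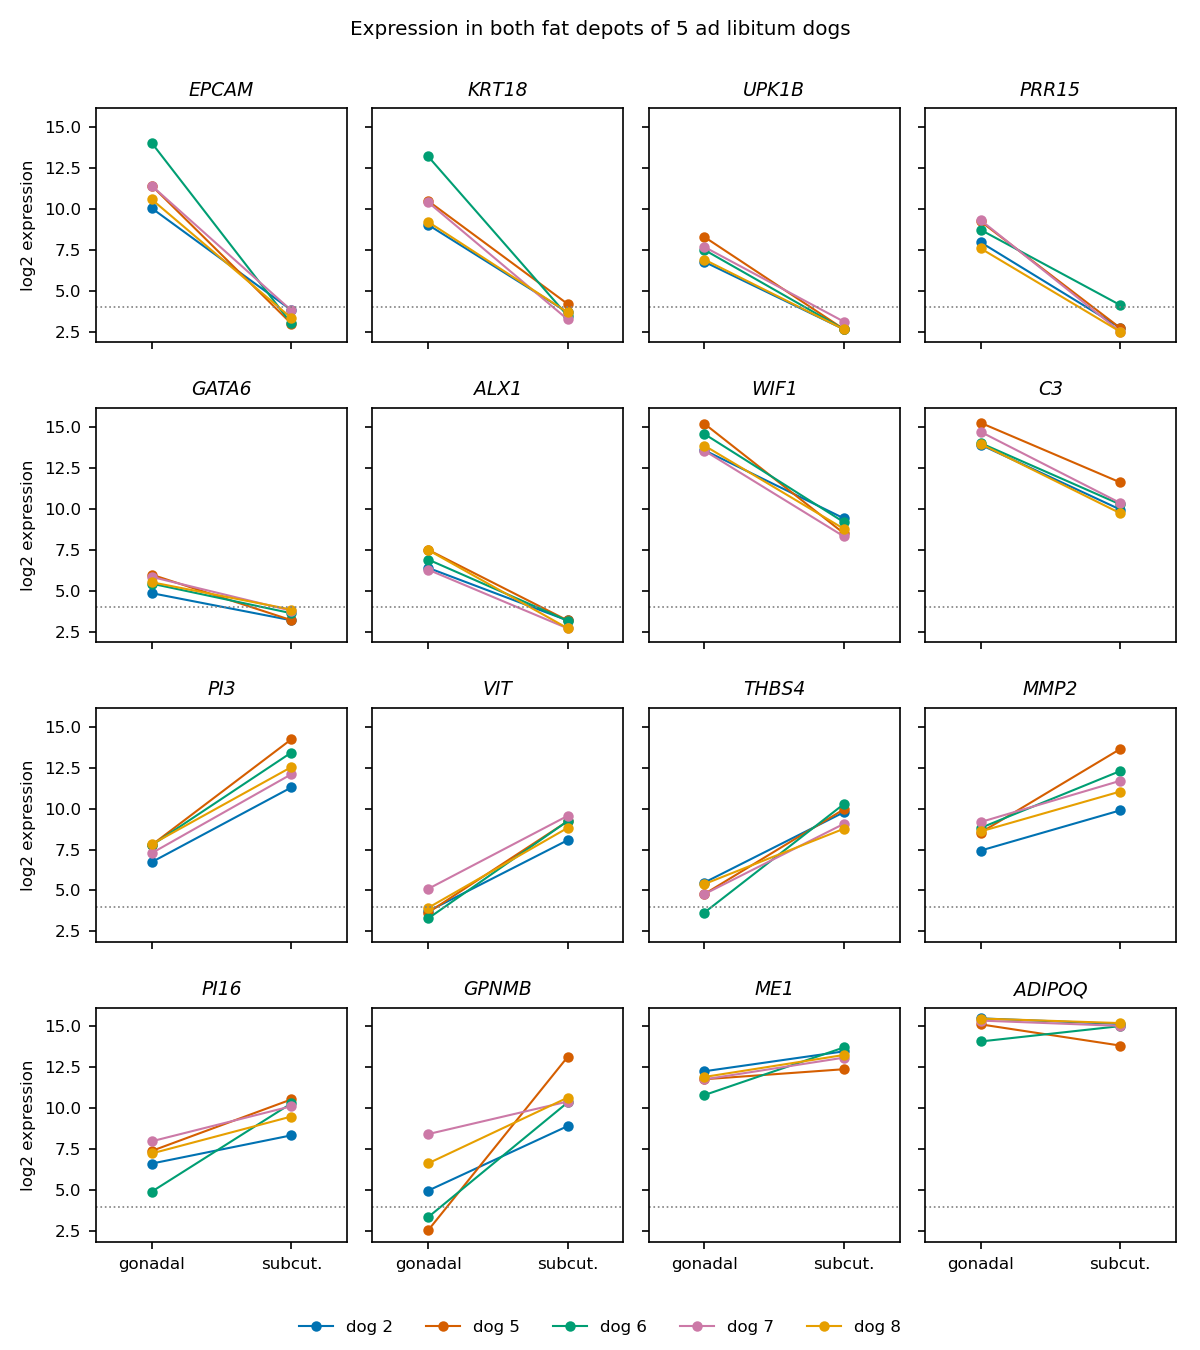
Log2 expression of 16 genes (vertical axis) in gonadal and subcutaneous fat, 1 line per ad libitum dog, with the floor of log2 4 dotted. The lines of EPCAM, KRT18, UPK1B, PRR15, GATA6, ALX1, WIF1 and C3 all go down towards subcutaneous fat, those of PI3, VIT, THBS4, MMP2, PI16, GPNMB and ME1 all go up, and those of ADIPOQ cross.

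Of 52 transcription factors that mark body position on the array 23 were measured, of which 8 rose, 1 fell and 14 did not pass. Of the 23, 7 lay below the floor in every subcutaneous array, among them 4 of the 8 that rose, ALX1, GATA6, TCF21 and WT1. The list median of 0.73 log2 units, 0.45 with depot means below the floor set to the floor, and the count again describe the measured members and do not support a direction. The number that rose was 4, 3, 6, 4 and 4 without dog 2, 5, 6, 7 or 8, and 2 without dogs 2 and 6. ALX1, a homeobox factor of mesenchyme, lay at 6.39, 7.49, 6.90, 6.28 and 7.48 in gonadal fat and at 3.18, 3.18, 3.16, 2.70 and 2.70 in subcutaneous fat. All gonadal arrays were above and all subcutaneous arrays below the floor. ALX1 was at least 7.49-fold higher (adjusted p = 0.00128). GATA6, a factor of mesoderm and endoderm, lay at 4.84, 5.97, 5.42, 5.83 and 5.51 in gonadal fat and at 3.19, 3.20, 3.62, 3.77 and 3.84 in subcutaneous fat. Again the groups lay on either side of the floor, and GATA6 was at least 2.86-fold higher (adjusted p = 0.00237).

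TCF21, a factor of visceral mesenchyme in mice, lay at 3.71, 5.45, 5.44, 4.06 and 5.03 in gonadal fat and at 2.67, 2.68, 2.63, 2.67 and 2.64 in subcutaneous fat. Dog 2 had the lowest gonadal value, below the floor, and the groups did not overlap. TCF21 was at least 1.67-fold higher (adjusted p = 0.0109). HOXA5, a homeobox gene of trunk position, lay at 9.96, 10.36, 10.79, 9.78 and 10.22 in gonadal fat and at 9.30, 9.44, 9.23, 9.36 and 9.00 in subcutaneous fat. Its groups did not overlap although they lay close, and HOXA5 was higher by 0.96 ± 0.20 log2 units (adjusted p = 0.0221). It missed the threshold without dog 2, 5 or 8 (adjusted p of 0.0502, 0.0546 and 0.0838). HOXB7, NR2F1, NR2F2 and the mesothelial WT1 completed the genes that rose, and PRRX1, a factor of limb and body wall mesenchyme in mice, was the gene that fell. TBX15 and HOXC10, known as subcutaneous markers in humans and mice, were not tested, because TBX15 reached the floor in 1 subcutaneous array and HOXC10 in none.

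Several secreted signals differed. Of 18 measured genes of the Wnt pathway 4 rose and 1 fell, with a list median of 0.23 log2 units, and 0.43 without dog 5. Of the 18, 3 lay below the floor in every subcutaneous array, among them RSPO1, 1 of the 4 that rose. The count describes the measured members and does not support a direction. Without dog 2, 5, 6, 7 or 8 the number that rose was 3, 2, 4, 1 and 2. WIF1, a secreted inhibitor that binds Wnt proteins, lay at 13.56, 15.18, 14.55, 13.54 and 13.84 in gonadal fat and at 9.41, 8.49, 9.17, 8.30 and 8.77 in subcutaneous fat. The lowest gonadal value was far above the highest subcutaneous value. WIF1 was higher by 5.31 ± 0.56 log2 units, 39.6-fold (adjusted p = 0.00135). The coreceptor LRP5 (0.84 ± 0.16, adjusted p = 0.0174) and the nuclear effector TCF7L2 (0.66 ± 0.14, adjusted p = 0.0232) rose with RSPO1. DKK2, an inhibitor that binds Wnt coreceptors, fell by 2.90 ± 0.58 log2 units (adjusted p = 0.0193) and was lower in 4 of 5 dogs. Dog 5 had a difference of 0.22 for DKK2. Leaving out 1 dog moved LRP5, TCF7L2 and DKK2 past an adjusted p of 0.05 for dog 7 (0.0712, 0.0883 and 0.0745) and dog 8 (0.0708, 0.0815 and 0.0602). LRP5 and TCF7L2 also missed it without dog 5 (0.0513 and 0.0638), and TCF7L2 and DKK2 without dog 2 (0.062 and 0.0653).

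Of 23 measured genes of the insulin-like and fibroblast growth factor families 4 rose and 0 fell, with a list median of 0.21 log2 units. Of the 23, 4 lay below the floor in every subcutaneous array, among them FGF9 and FGF14, 2 of the 4 that rose. The count describes the measured members and does not support a direction. FGF9, a secreted growth factor of mesothelium and gonad in mice, lay at 4.58, 8.23, 6.56, 7.50 and 6.05 in gonadal fat and at 2.60, 2.76, 2.95, 2.82 and 2.75 in subcutaneous fat. The gonadal values spread widely, with dog 2 the lowest, and all lay above the subcutaneous values. FGF9 was at least 6-fold higher (adjusted p = 0.00149). IGFBP3, which carries insulin-like growth factors in blood and tissue, was higher by 2.11 ± 0.25 log2 units (adjusted p = 0.00226). The others were FGF14 (at least 1.91-fold, adjusted p = 0.0356, higher in 4 of 5 dogs) and the insulin receptor substrate IRS1 (0.64 ± 0.17 log2 units, adjusted p = 0.0451). IRS1 missed the threshold when any 1 dog was left out (0.0565 to 0.155) and with no block for the dog (adjusted p = 0.234), and FGF14 without dog 5, 6, 7 or 8 (0.0729 to 0.116). Of the list 3, 2, 5, 2 and 2 rose with dog 2, 5, 6, 7 or 8 left out.

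Of 15 measured genes of retinoic acid handling 4 rose and 0 fell, with a list median of 0.36 log2 units, and 0.24 without dog 6. Of the 4 that rose, 1, ALDH1A2, lay below the floor in every subcutaneous array. The count describes the measured members and does not support a direction. ALDH1A1, which makes retinoic acid from retinaldehyde, lay at 11.22, 13.35, 12.44, 11.55 and 11.60 in gonadal fat and at 9.15, 11.53, 9.13, 9.58 and 9.81 in subcutaneous fat. The groups overlapped because dog 5 was the highest in both depots, and each dog was higher in gonadal fat. ALDH1A1 was higher by 2.19 ± 0.27 log2 units (adjusted p = 0.00277). ALDH1A2, which catalyses the same step, was at least 4.15-fold higher (adjusted p = 0.0224), and the receptor RARB at least 2.85-fold (adjusted p = 0.0244). RARRES1, a gene induced by retinoids, was higher by 1.51 ± 0.37 log2 units (adjusted p = 0.0379). With dog 2, 5, 6, 7 or 8 left out, 2, 1, 2, 1 and 1 of the list rose, and ALDH1A1 passed each time. RARRES1 missed the threshold each time (adjusted p of 0.0633 to 0.117) and with no block for the dog (adjusted p = 0.138). Of 17 steroid receptor and enzyme genes ESR1, the estrogen receptor alpha, rose alone (1.73 ± 0.41 log2 units, adjusted p = 0.0342), where 3.32% of all genes rose. ESR1 passed without dog 2 and missed the threshold without any other single dog (adjusted p of 0.0697 to 0.0983) and with no block for the dog (adjusted p = 0.0627).

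Of 18 adipokine and depot hormone genes 1 rose and 2 fell. The list median of -0.33 log2 units was -0.19 without dog 2, -0.22 without dog 6 and -0.52 without dog 7, and -0.14 with depot means below the floor set to the floor. AGT, the angiotensin precursor, lay at 9.86, 8.80, 6.51, 9.21 and 6.71 in gonadal fat and at 5.89, 3.27, 3.57, 4.35 and 3.06 in subcutaneous fat. The groups did not overlap, and 3 subcutaneous arrays lay below the floor. AGT was higher by 4.19 ± 0.50 log2 units (adjusted p = 0.00237). LCN2, lipocalin-2, fell by 2.82 ± 0.53 log2 units (adjusted p = 0.0152), and ANGPTL1, a secreted angiopoietin-like protein, fell by 1.60 ± 0.40 (adjusted p = 0.0399). LCN2 and ANGPTL1 missed the threshold with no block for the dog (adjusted p of 0.0714 and 0.199), without dog 2 (0.0501 and 0.0789) and without dog 7 (0.0501 and 0.084) or dog 8 (0.0546 and 0.0735). ANGPTL1 also missed it without dog 5 (0.0815).

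Complement genes did not move together. Of 20 measured, 3 rose and 1 fell. The list median of -0.41 log2 units was -0.22 without dog 5 and -0.04 with a filter at log2 6. C3, the central component of the cascade, lay at 13.89, 15.23, 14.00, 14.68 and 13.95 in gonadal fat and at 9.94, 11.60, 10.26, 10.35 and 9.72 in subcutaneous fat. Dog 5 was the highest in both depots, and the groups did not overlap. C3 was higher by 3.98 ± 0.22 log2 units, 15.7-fold (adjusted p = 0.000115), and its 6 probe sets gave differences of 3.98 to 5.36. C6, a component of the membrane attack complex, lay at 11.12, 12.03, 9.31, 12.51 and 12.02 in gonadal fat and at 6.88, 7.71, 6.24, 6.16 and 6.71 in subcutaneous fat. Its lowest gonadal value, in dog 6, was above every subcutaneous value. C6 was higher by 4.66 ± 0.41 log2 units (adjusted p = 0.000719). CFI, a protease that cleaves C3b, was higher by 1.12 ± 0.19 (adjusted p = 0.0113), but missed the threshold without dog 7 (adjusted p = 0.0508) and with no block for the dog (adjusted p = 0.119). C8G, a subunit of the membrane attack complex, was at least 2.35-fold lower (adjusted p = 0.00237).

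Some genes of the extracellular matrix and of fibroblast-like cells were lower in gonadal fat. Of 42 measured collagen and matrix genes 9 fell and 1 rose, with a list median of -0.41 log2 units, and -0.19 without dog 6. Leaving out dog 2, 5, 6, 7 or 8 gave 8, 7, 8, 6 and 5 that fell. VIT, the matrix protein vitrin, lay at 3.73, 3.65, 3.29, 5.10 and 3.94 in gonadal fat and at 8.07, 9.22, 9.23, 9.55 and 8.82 in subcutaneous fat. Dog 7 was the only gonadal array above the floor, and the groups did not overlap. VIT was at least 31.5-fold lower (adjusted p = 0.00118). THBS4, a thrombospondin of tendon and muscle matrix, lay at 5.48, 4.78, 3.65, 4.78 and 5.39 in gonadal fat and at 9.77, 9.95, 10.27, 9.07 and 8.77 in subcutaneous fat. The groups were again apart, and THBS4 fell by 4.75 ± 0.43 log2 units (adjusted p = 0.000844).

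The structural genes FN1, fibronectin (-1.87 ± 0.27, adjusted p = 0.00507), VCAN, the proteoglycan versican (-1.63 ± 0.27, adjusted p = 0.00941), and FBN1, the microfibril protein fibrillin-1 (-1.56 ± 0.27, adjusted p = 0.0125), also fell. They passed without any single dog, and VCAN missed the threshold with no block for the dog (adjusted p = 0.0982). COL1A1, LOXL2, MFAP5 and MFAP2 were the others that fell, and FBLN1, the matrix glycoprotein fibulin-1, was the gene that rose. Outside the list, CILP, a cartilage matrix protein, fell by 4.32 ± 0.60 log2 units (adjusted p = 0.00445), and FNDC1, a fibronectin domain protein, by 3.81 ± 0.33 (adjusted p = 0.000689). CPXM1, a carboxypeptidase-like protein, was at least 7.09-fold lower (adjusted p = 0.0227), but missed the threshold without dog 2, 5 or 8 (adjusted p of 0.052, 0.0503 and 0.0628). SMPDL3A, a secreted phosphodiesterase, fell by 3.66 ± 0.61 (adjusted p = 0.0098), and MOCOS, which activates molybdenum enzymes, by 3.31 ± 0.35 (adjusted p = 0.00134).

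TMEFF2, a transmembrane protein with follistatin domains, lay at 5.47, 4.46, 7.38, 5.50 and 5.06 in gonadal fat and at 9.57, 12.42, 10.87, 11.30 and 10.03 in subcutaneous fat. Gonadal dog 6 was the highest of its group and still below every subcutaneous array. TMEFF2 fell by 5.27 ± 0.56 log2 units, 38.5-fold (adjusted p = 0.00139). Of 22 measured matrix proteases and inhibitors 5 fell and 0 rose, with a list median of -0.71 log2 units, and -0.42 without dog 6. Of the 22, 2 lay below the floor in every gonadal array, among them 1 of the 5 that fell. PI3, the elastase inhibitor elafin, lay at 6.73, 7.78, 7.76, 7.28 and 7.82 in gonadal fat and at 11.29, 14.22, 13.42, 12.09 and 12.53 in subcutaneous fat. No array of either depot came near the other depot, and PI3 fell by 5.23 ± 0.36 log2 units, 37.6-fold (adjusted p = 0.000207). MMP2, a gelatinase of fibroblasts, lay at 7.44, 8.53, 8.82, 9.18 and 8.60 in gonadal fat and at 9.89, 13.63, 12.29, 11.69 and 11.04 in subcutaneous fat. Dog 2 was the lowest in both depots, which did not overlap, and MMP2 fell by 3.19 ± 0.41 log2 units (adjusted p = 0.00327).

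CTSK, a collagen-degrading cathepsin, fell by 1.51 ± 0.26 log2 units (adjusted p = 0.0112), and TIMP2, an inhibitor of matrix metalloproteases, by 1.08 ± 0.29 (adjusted p = 0.0478). TIMP2 passed without dog 2 and missed the threshold without any other single dog (adjusted p of 0.0929 to 0.133) and with no block for the dog (adjusted p = 0.0648). Of the protease list 5, 3, 4, 3 and 3 fell with dog 2, 5, 6, 7 or 8 left out. Of 20 measured stromal and progenitor genes 4 fell and 1 rose, with a list median of -0.49 log2 units, and -0.28 without dog 6. PI16, a marker of fibroblast-like progenitors in mice and humans, lay at 6.64, 7.41, 4.93, 8.00 and 7.25 in gonadal fat and at 8.36, 10.55, 10.31, 10.13 and 9.51 in subcutaneous fat. No values were shared between the depots, and PI16 fell by 2.93 ± 0.47 log2 units (adjusted p = 0.00837). ICAM1, an adhesion molecule of progenitors and endothelium, fell by 2.28 ± 0.27 (adjusted p = 0.00243), as did MFAP5 (-1.88 ± 0.38, adjusted p = 0.02) and the fibroblast protease FAP (-1.77 ± 0.44, adjusted p = 0.0379). NT5E, the ectoenzyme CD73, rose by 2.50 ± 0.54 (adjusted p = 0.0244), though 1 of its 3 probe sets differed by 0.01. FAP and NT5E missed the threshold with no block for the dog (adjusted p of 0.145 and 0.107). MFAP5 and NT5E missed it without dog 5 (adjusted p of 0.0513 and 0.0704), dog 7 (0.0618 and 0.0601) or dog 8 (0.065 and 0.0841), and FAP without dog 2, 5, 7 or 8 (0.062 to 0.113). Of the stromal list 3, 2, 4, 2 and 2 fell with dog 2, 5, 6, 7 or 8 left out.

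Of 24 measured macrophage genes 6 fell in gonadal fat, 0 rose and 18 did not pass, with 23 negative differences and a list median of -0.93 log2 units. Of the 6, 1 lay below the floor in every gonadal array. With dog 2, 5, 6, 7 or 8 left out, 1, 2, 3, 1 and 1 fell, and 0 without dogs 2 and 6. The mean of the list lay at 7.38, 7.45, 6.82, 7.91 and 7.77 in gonadal fat and at 7.99, 10.09, 7.97, 8.57 and 8.80 in subcutaneous fat. The groups did not overlap, and subcutaneous fat of dog 5 stood well above the rest. GPNMB, a glycoprotein of lipid-laden macrophages, lay at 4.98, 2.56, 3.37, 8.43 and 6.65 in gonadal fat and at 8.92, 13.14, 10.36, 10.42 and 10.66 in subcutaneous fat. Dog 5 was the lowest in gonadal and the highest in subcutaneous fat. GPNMB fell by 5.50 ± 1.07 log2 units (adjusted p = 0.0168), and its adjusted p was 0.0264 without dog 5.

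TREM2, a lipid-sensing receptor of macrophages, was at least 1.53-fold lower (adjusted p = 0.0317), and MSR1, a scavenger receptor, fell by 1.68 ± 0.42 log2 units (adjusted p = 0.0385). LGALS3, the lectin galectin-3 (-0.91 ± 0.20, adjusted p = 0.0245), CTSS, a lysosomal cathepsin (-0.99 ± 0.25, adjusted p = 0.0394), and the adaptor TYROBP made up the rest. With 1 dog left out TREM2 passed when it was dog 5 (otherwise adjusted p of 0.0509 to 0.0953), LGALS3 when it was dog 6 (otherwise 0.0513 to 0.0677), and MSR1 and CTSS each missed the threshold (0.0637 to 0.118). MMP9, a gelatinase of leukocytes, lay at 2.62, 2.54, 2.47, 2.82 and 2.52 in gonadal fat and at 5.63, 11.12, 3.38, 5.57 and 7.65 in subcutaneous fat. All gonadal arrays were below the floor, as was subcutaneous dog 6. MMP9 was at least 6.37-fold lower (adjusted p = 0.0327), and missed the threshold without dog 2, 5, 7 or 8 (adjusted p of 0.0704, 0.0574, 0.0736 and 0.107).

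BCL2A1, a survival factor of blood cells, lay at 6.47, 5.68, 5.75, 6.11 and 5.69 in gonadal fat and at 9.63, 12.22, 8.99, 9.33 and 9.83 in subcutaneous fat. The groups did not overlap, with subcutaneous dog 5 above the rest. BCL2A1 fell by 4.06 ± 0.52 log2 units (adjusted p = 0.00339), and its adjusted p was 0.00436 without dog 5. Of 26 measured chemokine and inflammation genes 4 fell and 0 rose, with a list median of -0.69 log2 units, -0.28 without dog 5, and -0.21 with depot means below the floor set to the floor. CXCL14, a chemokine of epithelia and fibroblasts, lay at 10.32, 10.40, 8.50, 12.63 and 12.12 in gonadal fat and at 14.65, 13.20, 14.47, 14.88 and 14.77 in subcutaneous fat. Here dog 5 was the lowest subcutaneous array, and the groups did not overlap. CXCL14 fell by 3.60 ± 0.52 log2 units (adjusted p = 0.00551). PTGES, a prostaglandin E synthase, fell by 2.12 ± 0.35 (adjusted p = 0.00938), and VCAM1, a leukocyte adhesion molecule, by 0.99 ± 0.27 (adjusted p = 0.0488). VCAM1 missed the threshold when any 1 dog was left out (adjusted p of 0.0831 to 0.139) and with no block for the dog (adjusted p = 0.116). The 3 measured lymphocyte genes and the 5 of neutrophils and mast cells held 0 that passed, with medians of -0.36 and 0.29 log2 units (-0.33 to -0.64 and 0.22 to 0.58 with 1 dog left out).

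Of 26 measured genes of fat cell identity and storage 1 fell and 0 rose, near the 5.49% of all genes that fell. The list median of -0.11 log2 units was -0.45 without dog 5 and 0.17 without dog 6. ADIPOQ differed by 0.26 ± 0.26 (adjusted p = 0.561), and PPARG, the master regulator of fat cell formation, by 0.13 ± 0.41 (adjusted p = 0.875). LEP, the hormone leptin, lay at 11.59, 11.37, 10.06, 11.72 and 11.74 in gonadal fat and at 12.63, 10.56, 11.64, 11.65 and 11.87 in subcutaneous fat. The groups overlapped, with 2 dogs higher and 3 lower in gonadal fat, and LEP differed by -0.37 ± 0.32 (adjusted p = 0.494). PNPLA3, a lipid droplet protein induced by feeding, was the gene that fell. It lay at 8.65, 6.71, 4.89, 7.59 and 7.77 in gonadal fat and at 11.03, 7.49, 10.37, 10.26 and 9.49 in subcutaneous fat. The groups overlapped through subcutaneous dog 5, and every dog was lower in gonadal fat. PNPLA3 fell by 2.61 ± 0.59 log2 units (adjusted p = 0.0286), but missed the threshold without dog 2, 7 or 8 (adjusted p of 0.0733, 0.0864 and 0.0649) and with no block for the dog (adjusted p = 0.0697). The mean of the list was lowest in gonadal dog 6 (9.71) and subcutaneous dog 5 (10.01).

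Of 17 measured genes of fatty acid synthesis 3 fell in gonadal fat and 0 rose. The list median of -0.30 log2 units was -0.15 without dog 6 and -0.47 without dog 5. ME1, the malic enzyme that makes NADPH, lay at 12.27, 11.78, 10.81, 11.77 and 11.92 in gonadal fat and at 13.48, 12.39, 13.72, 13.10 and 13.26 in subcutaneous fat. Every gonadal value was below every subcutaneous value, and ME1 fell by 1.48 ± 0.27 log2 units (adjusted p = 0.0142). PGD (-0.84 ± 0.19, adjusted p = 0.0284) and TKT (-0.88 ± 0.20, adjusted p = 0.0298), enzymes of the pentose phosphate pathway, also fell. Both passed without dog 5, missed the threshold without any other single dog (adjusted p of 0.0608 to 0.104), and missed it with no block for the dog (0.0853 and 0.0679). Of 23 measured genes of lipolysis and fatty acid oxidation 1 fell and 0 rose, near the 5.49% of all genes that fell. The list median of -0.08 was -0.35 without dog 5 and -0.02 without dog 2. The gene that fell was CPT2, the inner mitochondrial carnitine transferase, which lay at 10.16, 10.10, 9.86, 10.15 and 9.52 in gonadal fat and at 11.15, 11.13, 10.63, 11.15 and 10.71 in subcutaneous fat. Every dog was lower in gonadal fat by a similar amount, -0.77 to -1.19, and CPT2 fell by 0.99 ± 0.16 log2 units (adjusted p = 0.00819).

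Of 28 measured genes of oxidative phosphorylation 23 had a negative difference, 5 fell and 0 rose, with a list median of -0.34 log2 units. They were the complex III gene UQCRC1 (-0.78 ± 0.15, adjusted p = 0.0162), cytochrome c CYCS (-1.03 ± 0.23, adjusted p = 0.0271), NDUFS3 (-0.64 ± 0.14, adjusted p = 0.0262), NDUFA4 and ATP5PO. With dog 2, 5, 6, 7 or 8 left out, 1, 4, 2, 0 and 0 fell, and 1 with no block for the dog. Adding the actin 3′ minus 5′ difference to the fit gave 11 that fell. Of 13 measured genes of cholesterol synthesis 3 fell and 0 rose, with a list median of -0.52 log2 units. They were MVD (-1.14 ± 0.22, adjusted p = 0.0159), CYP51A1 (-1.04 ± 0.22, adjusted p = 0.0243) and FDPS (-0.73 ± 0.18, adjusted p = 0.035), and 0, 2, 2, 1 and 1 of the list fell with dog 2, 5, 6, 7 or 8 left out. The 9 thermogenic and adrenergic receptor genes held 0 that passed, with a median of -0.09 (-0.30 to 0.10 with 1 dog left out).

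**Figure D4:**
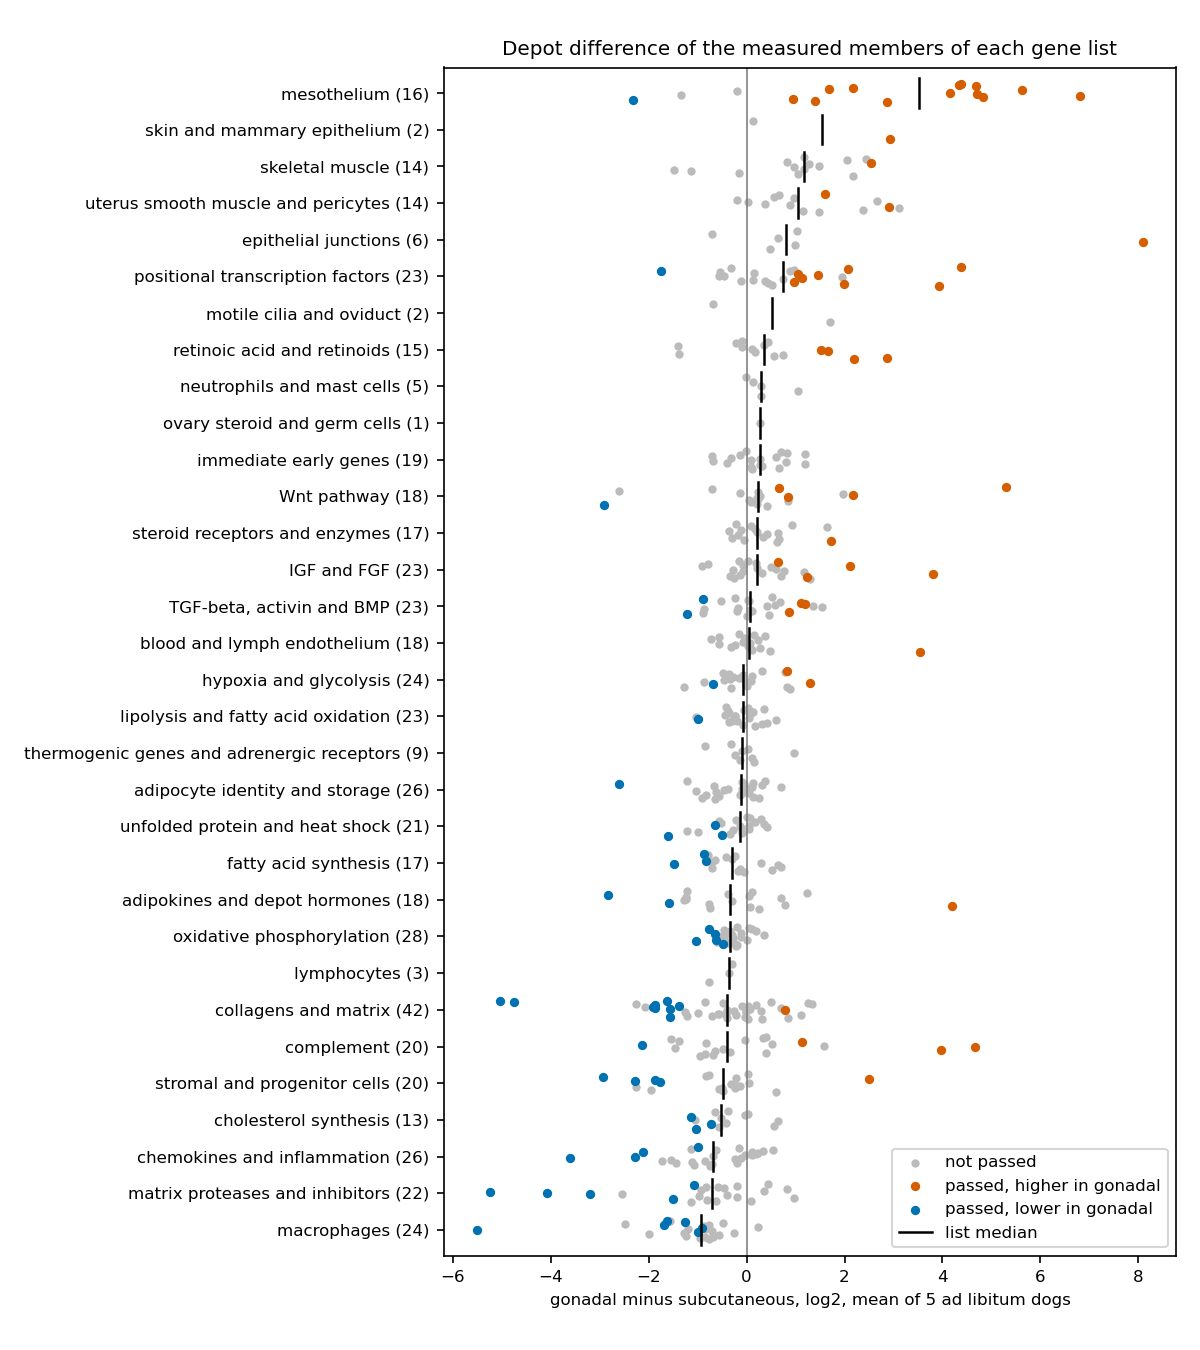
Depot difference (gonadal minus subcutaneous, log2, horizontal axis) of each measured member of 32 gene lists in the 5 ad libitum dogs, with the number of measured members in brackets, members past an adjusted p of 0.05 in colour and the list median as a bar. The mesothelial median is the highest at 3.51 and the macrophage median the lowest at -0.93. Points of genes below the floor in a depot are fitted differences and not folds.

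Muscle transcripts rested partly on single arrays. Of 14 measured skeletal muscle genes 1 rose, where 3.32% of all genes rose. The list median of 1.17 log2 units was -0.04 without dog 2, 2.03 without dog 7, and 0.62 with depot means below the floor set to the floor. The mean of the list lay at 10.36, 4.62, 5.64, 4.60 and 5.29 in gonadal fat and at 4.85, 4.58, 4.96, 6.04 and 4.96 in subcutaneous fat. MYOM1, a sarcomere protein, lay at 8.33, 7.31, 8.59, 6.64 and 9.37 in gonadal fat and at 4.40, 6.21, 6.06, 5.10 and 5.79 in subcutaneous fat. MYOM1 was higher in gonadal fat of every dog. Its gonadal level was not the highest in dog 2, but its depots lay furthest apart there (8.33 against 4.40). It rose by 2.54 ± 0.58 log2 units (adjusted p = 0.0307), but missed the threshold without dog 2, 6, 7 or 8 (adjusted p of 0.0965, 0.0571, 0.0647 and 0.106).

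Of 14 measured genes of smooth muscle and pericytes 2 rose and 0 fell, with 13 positive differences and a list median of 1.06 log2 units. Both genes that rose, TAGLN (1.61 ± 0.37, adjusted p = 0.03) and DES (2.91 ± 0.76, adjusted p = 0.0449), code for cytoskeletal proteins of muscle cells, and both missed the threshold without dog 2 (adjusted p of 0.0824 and 0.116), with any other dog left out and with no block for the dog. Without dog 6 the pericyte genes ABCC9 and RGS5 passed in their place. The number of the list that rose was 8 with the actin 3′ minus 5′ difference in the fit, 6 with the 10 ad libitum arrays alone, 7 without control dogs 3 and 4, and 4 with a filter at log2 6. MYH11, the smooth muscle myosin, was 2.65 ± 0.73 (adjusted p = 0.0542). Of 18 measured endothelial genes CCL21, a chemokine of lymphatic vessels, alone passed, where 3.32% of all genes rose. The list median was 0.05 (-0.08 to 0.17 with 1 dog left out). CCL21 lay at 8.53, 9.54, 8.28, 7.65 and 9.84 in gonadal fat and at 4.48, 8.93, 3.12, 3.65 and 6.00 in subcutaneous fat. Subcutaneous dog 5 lay among the gonadal values, and CCL21 rose by 3.53 ± 0.73 log2 units (adjusted p = 0.0216). It passed without dog 5 and missed the threshold without any other single dog (adjusted p of 0.0503 to 0.0757).

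Of 23 measured genes of the TGF-beta, activin and BMP pathways 3 rose and 2 fell, with a list median of 0.06 log2 units (0.06 to 0.18 with 1 dog left out). LTBP4, which holds latent TGF-beta in the matrix, rose by 1.11 ± 0.23 (adjusted p = 0.0229). Its family member LTBP2 (1.19 ± 0.29, adjusted p = 0.0366) and the BMP antagonist CHRD also rose. BMP6 fell by 1.21 ± 0.29 (adjusted p = 0.033) and the matrix protein TGFBI by 0.89 ± 0.23 (adjusted p = 0.0414). With no block for the dog 0 of the list passed, and without dog 8 or dog 5 also 0. Of 24 genes of hypoxia and glycolysis 2 rose and 1 fell, with a list median of -0.07, and -0.19 without dog 5. Of all genes 3.32% rose and 5.49% fell. ENO2, a neuronal enolase, rose by 1.30 ± 0.16 (adjusted p = 0.00308), and the angiogenic factor VEGFA rose by 0.83 ± 0.18 (adjusted p = 0.0255). ENO1, the widely expressed enolase, fell by 0.68 ± 0.17 (adjusted p = 0.0391). With no block for the dog ENO2 and VEGFA missed the threshold (adjusted p of 0.0792 and 0.0566), and VEGFA passed without dog 6 and missed it without any other single dog (adjusted p of 0.053 to 0.0917), as did ENO1 without dog 5, 7 or 8 (adjusted p of 0.103, 0.114 and 0.128).

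Of 21 genes of the unfolded protein response and heat shock 3 fell and 0 rose, with a list median of -0.13 log2 units, and -0.26 without dog 7. ASNS, asparagine synthetase, lay at 9.80, 8.24, 8.30, 8.23 and 8.57 in gonadal fat and at 10.87, 9.18, 10.66, 10.17 and 10.26 in subcutaneous fat. Each dog was lower in gonadal fat, and dog 2 was the highest in both depots, so that the groups overlapped. ASNS fell by 1.60 ± 0.22 log2 units (adjusted p = 0.00472), together with its regulator ATF4 and the chaperone HSPA8 (-0.66 ± 0.16, adjusted p = 0.0399). With any 1 dog left out 1 of the list fell, and HSPA8 missed the threshold each time (adjusted p of 0.0572 to 0.129). The 19 immediate early genes, which respond to handling of tissue, held 0 that passed, with a median of 0.28 (0.01 to 0.50 with 1 dog left out).

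Control dogs, which share no array with the ad libitum dogs, were compared in the same way. Their actin 3′ minus 5′ signal was higher in subcutaneous fat of each dog. In dogs 1, 3, 4 and 9 it was 4.55, 3.42, 5.72 and 5.33 there, against 1.91, 3.17, 2.53 and 4.03 in gonadal fat. Whether RNA length bears on the depot difference of control dogs was not tested. In 4 control dogs 332 of 8656 genes passed (3.84%), of which 156 were among the 762 of ad libitum dogs. That is 20.5% of the ad libitum and 47% of the control calls, and 0 had opposite signs. Of the 287 genes higher in ad libitum dogs 272 had a positive difference in control dogs, with a median of 0.76 log2 units, and of the 475 lower genes 401 had a negative one, with a median of -0.35. Over the 762 genes 88.3% had the same sign in both feeding groups, against 65.4% of all genes. All 4 control dogs were higher in 169 of the 287 and lower in 227 of the 475 genes, counts for which no share over all genes was taken. Subcutaneous fat of control dogs 3 and 4 had 21 and 22 of 24 skeletal muscle genes at or above the floor, with list means of 10.88 and 9.70, against 6 to 8 genes in the other control arrays. In the fit without those dogs, 11 genes passed in the 2 control dogs left (0.127%), all 11 among the 762, and 87.9% of the 762 genes had the same sign in both feeding groups, against 64.5% of all genes.

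C3 was higher by 3.98 ± 0.22 log2 units in ad libitum dogs and by 2.54 ± 0.25 in control dogs (adjusted p = 0.00248), and C6 by 4.66 ± 0.41 and 3.80 ± 0.45 (adjusted p = 0.00504). WIF1 was higher by 5.31 ± 0.56 in ad libitum and 3.17 ± 0.63 in control dogs (adjusted p = 0.0301). PI3 fell in both, with -5.23 ± 0.36 in ad libitum and -6.59 ± 0.41 in control dogs (adjusted p = 0.000342), and so did TMEFF2, with -5.27 ± 0.56 and -6.02 ± 0.63 (adjusted p = 0.00288). EPCAM did not pass in control dogs (adjusted p = 0.0626). Its levels in control dogs 1, 3, 4 and 9 were 10.95, 9.83, 11.74 and 11.44 in gonadal fat and 3.39, 3.19, 12.91 and 3.40 in subcutaneous fat. Subcutaneous fat of control dog 4 stood apart, and that array had 20 of 26 cilia and oviduct genes at or above the floor. Without control dogs 3 and 4, PI3, WIF1 and UPK1B passed in control dogs (adjusted p of 0.0116, 0.0414 and 0.0265), and C3, C6, TMEFF2, GATA6 and EPCAM did not (0.0819, 0.0831, 0.111, 0.0819 and 0.0587). GATA6, with a control subcutaneous mean below the floor, passed in control dogs (adjusted p = 0.00328), as did UPK1B (adjusted p = 0.00168).

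**Figure D5:**
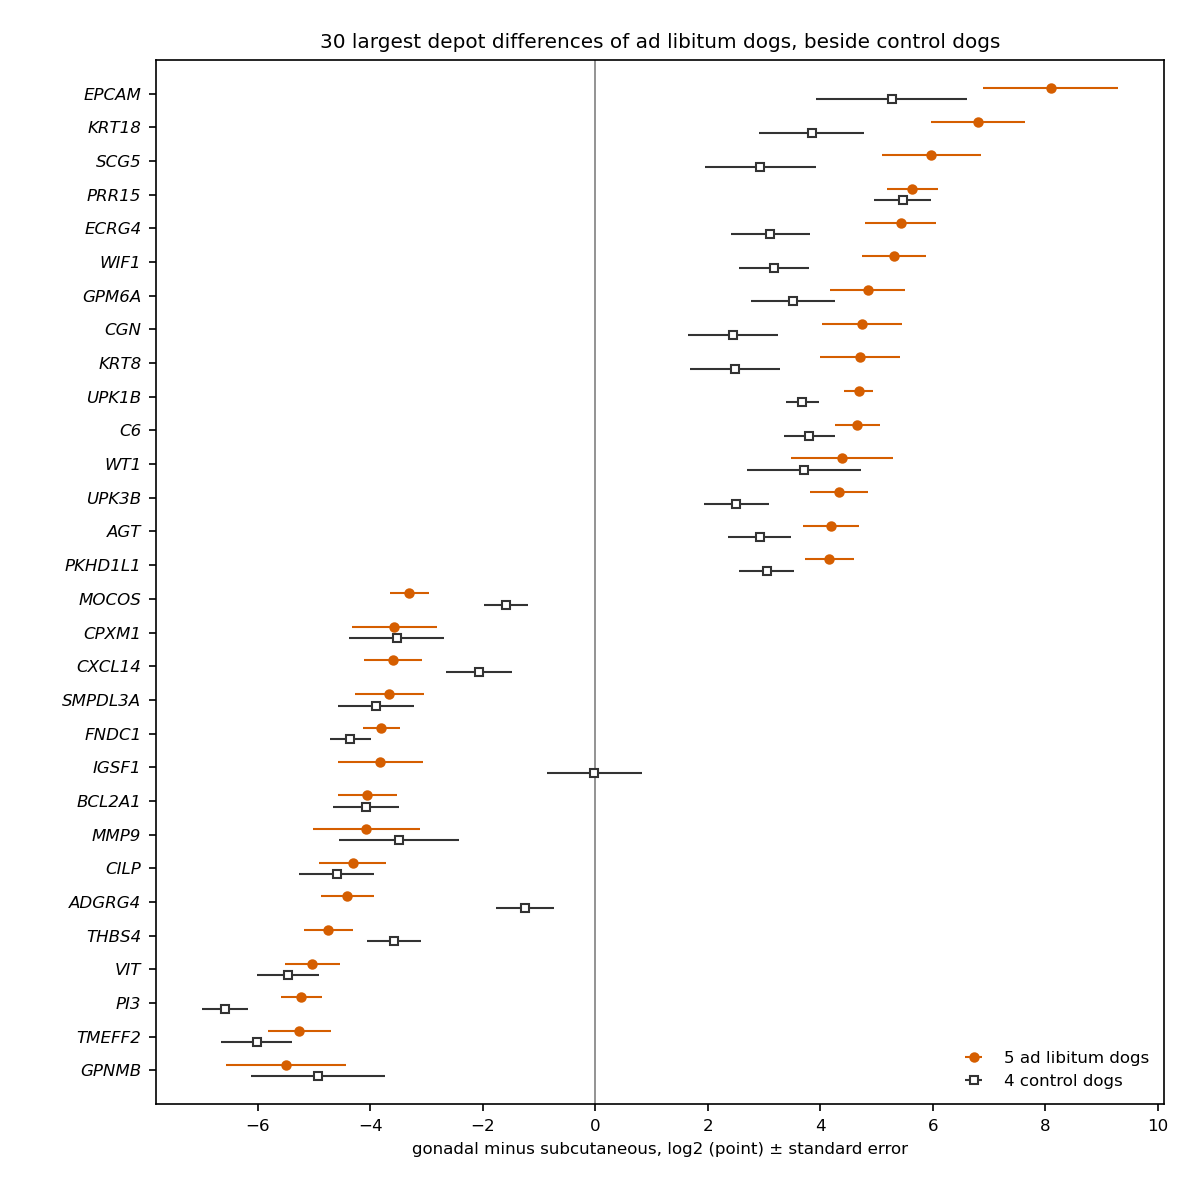
Depot difference (gonadal minus subcutaneous, log2, horizontal axis; bars are standard errors) of the 15 genes with the largest increase and the 15 with the largest decrease in 5 ad libitum dogs, with the same genes in 4 control dogs. The points of both feeding groups lie on the same side of 0, IGSF1 of the control dogs lying at -0.02. For genes with a depot mean below the floor the points are fitted differences.

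Whether the depot difference itself changed with ad libitum feeding was tested as the ad libitum minus the control difference. Of 21484 probe sets 0 passed (0%, smallest adjusted p = 0.312), and 2154 had an unadjusted p under 0.05 in limma. Without control dogs 3 and 4 also 0 passed (smallest adjusted p = 0.852), and 1174 had an unadjusted p under 0.05. The other fits listed in the closing section also gave 0. Some came near the threshold, with a smallest adjusted p of 0.0523 without dogs 2, 6 and 7 and 0.0594 without dog 5. The gene with the smallest p in the annotation used, LOC479761, which has no other name there, differed between depots by 0.11 ± 0.11 in ad libitum and -1.02 ± 0.13 log2 units in control dogs. CDK12, a kinase of transcription elongation, followed with 0.32 ± 0.13 and -0.96 ± 0.15, and was higher in gonadal fat of 5 of 5 ad libitum dogs and lower in 4 of 4 control dogs (adjusted p of the difference = 0.312). LOC491883 (-1.95 ± 0.13 in ad libitum and -0.79 ± 0.14 in control dogs) and the nudix hydrolase NUDT22 (-1.02 ± 0.12 and 0.10 ± 0.14) came next.

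PCSK1, a protease that activates prohormones, lay at 6.62, 5.61, 4.90, 5.65 and 5.58 in gonadal fat and at 8.73, 7.08, 7.68, 7.12 and 7.80 in subcutaneous fat of ad libitum dogs. Its groups did not overlap, and PCSK1 fell by 2.01 ± 0.21 log2 units (adjusted p = 0.00128), against -0.22 ± 0.23 in control dogs (adjusted p = 0.61; adjusted p of the difference = 0.416). ADGRG4, an adhesion receptor, lay at 2.40, 2.20, 2.17, 2.27 and 2.26 in gonadal fat, below the floor in all, and at 8.13, 6.38, 7.91, 5.62 and 5.32 in subcutaneous fat, above it in all. ADGRG4 was at least 6.37-fold lower (adjusted p = 0.00134), and in control dogs both depot means lay below the floor (adjusted p of the difference = 0.416). IGSF1, an immunoglobulin-domain membrane protein, lay at 4.25, 2.92, 2.51, 2.74 and 2.62 in gonadal fat and at 8.48, 6.42, 5.97, 6.83 and 6.46 in subcutaneous fat. Dog 2 was the highest in both depots, and the groups did not overlap. IGSF1 was at least 7.12-fold lower (adjusted p = 0.0177), but missed the threshold without dog 2, 7 or 8 (adjusted p of 0.0587, 0.0637 and 0.0616), and it did not pass in control dogs (-0.02 ± 0.84, adjusted p = 0.991; adjusted p of the difference = 0.44). Without control dogs 3 and 4 the control difference of IGSF1 was -2.44 ± 0.48 (adjusted p = 0.143). None of these differences between feeding groups passed, which does not show that the depots differed alike in both.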

How the data were processed

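Gene expression of 18 arrays, 1 per depot and dog, was read from the deposited table of log2 values, made by the authors with GCRMA (named in the submitters' processing notes, with no version or option in the sources used here). That the logarithm is to base 2 was read from the range, 0.68 to 16.51. Array medians were 3.65 to 3.87. Of 43035 probe sets 111 were array controls, and of the others 29254 had 1 gene symbol in the platform annotation, 439 several and 13231 none. By gene ID 27680 matched the RefSeq gene table, with 0 symbols changed.

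A probe set was tested if 4 or more of the 18 arrays reached log2 4, the floor, which left 21484. The share of probe sets reaching it was 47.2% to 49.1% per array. With limma 3.58.1 and statmod 1.5.0 in R 4.3.3, each dog was a block, with a depot difference for ad libitum and for control dogs, over all 18 arrays. The fit had 7 residual degrees of freedom, and moderation added 2.66. The dog comes from the animal number in the labels, and the deviations of the 2 depots of a dog from their group means correlated at 0.53, 0.31, 0.011, 0.30 and 0.35 in dogs 2, 5, 6, 7 and 8, and at 0.26, 0.18, -0.051 and 0.077 in control dogs 1, 3, 4 and 9 (consensus over all dogs 0.17). Tests are two-sided, and p values are Benjamini-Hochberg adjusted over the probe sets. The number of arrays limits the precision. Where a depot mean lay below the floor it was set to the floor, and the fold is a bound. Both means below the floor gave no fold.

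A gene is its probe set with the highest mean; of 4882 genes with several tested probe sets 2 had probe sets called in opposite directions. Named genes are the 15 largest increases and 15 largest decreases with the same sign in every dog, the members of each list lowest in p (up to 5), a few fixed genes, and the 5 smallest p for ad libitum against control. MSLN, ACTB and GAPDH were not tested. GAPDH did reach the floor in all 5 gonadal and all 5 subcutaneous ad libitum arrays. Array control probe sets were left out of the test. Members, lists and tests were chosen with earlier results of these data known. The fit was tested on simulated data. Alternatives were the block, the filter, the scaling, the moderation, an RNA length covariate and leaving dogs out. Leaving out dogs 2 and 6, or 2, 6 and 7, was chosen after the data were seen. Sequences and coordinates are not given.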

Additional observations from a re-analysis of the deposited data

Results flagged for a closer look

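In a group of 5 values, 1 value was picked out when its gap to the nearest other value was over 0.71 of the whole range (Dixon's test), which chance does in about 1 of 20 groups. It picked out 24 of 248 groups checked. Among mean levels of gene lists these were the 2 measured genes of motile cilia and oviduct in gonadal fat of dog 6 (11.61), skeletal muscle in gonadal fat of dog 2 (10.36) and in subcutaneous fat of dog 7 (6.04), and endothelium in gonadal fat of dog 6 (7.27, lower than the rest). Others were fat cell genes (10.01, lower) and Wnt genes (7.86, higher) in subcutaneous fat of dog 5, and oxidative phosphorylation (11.95) and cholesterol synthesis (8.06) in gonadal fat of dog 2, both higher.

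Dog 5 stood apart in subcutaneous fat for BCL2A1 (12.22), ALDH1A1 (11.53) and CXCL14 (13.20, lower than the rest). Its depot difference stood apart for BCL2A1 (-6.54), CTSK (-2.95), CTSS (-1.78) and CD2 (-2.54). Dog 6 stood apart in the depot difference of OVGP1, an oviduct glycoprotein (6.76), ALDH1A1 (3.31), NPR1, a natriuretic peptide receptor (1.38), ANGPTL1 (-3.84) and BMP6 (-2.66), and in the subcutaneous level of PRR15 (4.12). Dog 2 stood apart in the gonadal level of IGSF1 (4.25) and ASNS (9.80), and dog 7 in the subcutaneous level of UPK1B (3.11).

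Among the 116 named genes, 3 had every ad libitum dog moving one way between depots and every control dog the other. The share over all genes was not counted, and CDK12 was named for its small p in this comparison. The ad libitum minus control depot difference was -1.84 log2 units for BMP6, 1.28 for CDK12 and 0.65 for MS4A2, a mast cell receptor subunit. The test of the difference itself did not pass for any of them (limma adjusted p of 0.416, 0.312 and 0.442).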

How the results depend on the processing

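Of 1832 probe sets and 762 genes called, the count was 1132 and 467 with no filter, 2896 and 1190 with the actin 3′ minus 5′ difference in the fit, 224 and 98 without dogs 6 and 7, 421 and 178 without dogs 2 and 6, and 40 and 16 without dogs 2, 6 and 7. With 1 dog left out the counts were 508 to 1642 probe sets and 204 to 684 genes. The fit with no replicate block for the dog called 1545 probe sets and 645 genes, 1275 of the 1832 among them. Centring each array on its median gave 32.5% higher calls, against 41.6% with all values as deposited. Every probe set of the 1832 that was tested kept its direction in each of these settings. The settings reuse the dogs in which the 1832 were called, so a kept direction is not separate support. Fewer dogs leave fewer degrees of freedom, so lost calls there do not show smaller differences. In ad libitum minus control dogs 0 passed in every setting run, with a smallest adjusted p between 0.0523 and 0.852. Reversed were LOC479761 with quantile normalization (-0.0014) and without dogs 2, 6 and 7 (-0.055), PPARG without dog 5 (-0.30; highest 0.61, without dog 6), and LEP without dogs 2 and 6 (0.25) or 2, 6 and 7 (0.34), none of which had passed; the cause was not tested. Probe sets below log2 4 have no measured fold.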
